A study of Homo sapiens with 6 samples.

Results

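Ferroptosis is a form of cell death driven by iron-dependent peroxidation of membrane lipids, and its best-known brake is GPX4, the glutathione peroxidase that reduces lipid hydroperoxides inside membranes. GPX4 draws on glutathione, which cells build from cysteine that is imported as cystine or made from methionine by transsulfuration. A parallel brake, which does not need glutathione, is reduced coenzyme Q, and neurons, with membranes rich in polyunsaturated lipids, rely on both. The series title links ether lipid remodelling during neuronal differentiation to protection from ferroptosis. The 10 genes described here are GPX4, SLC7A11, SLC3A2, GCLC, GCLM, GSS, GSR, CBS, AIFM2 and STARD7, taken by symbol from a table of 16625 genes. All 10 were in the table and none was lost to a filter.

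Stranded sequencing of polyA RNA covered human neurons derived from induced pluripotent stem cells (iPSCs), with 3 libraries labelled PEDS1 knockout and 3 labelled control. PEDS1 is the desaturase that forms the vinyl ether bond of plasmalogens. Both groups descend from the iPSC line UCSFi001-A and carry a doxycycline-inducible NGN2 transgene at the AAVS1 locus, so neurons of both groups were made with doxycycline, and the series places them at day 10 to 14. Clones within a group cannot be told apart, since each group has a single source name. Nothing in the labels says that replicates were separate cultures, so a p-value here speaks of the spread between libraries, which may be technical. Values are the authors' normalized counts, reads divided by a size factor per library.

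Reads assigned to the 16625 genes, recovered from the normalized counts, came to 28773664, 17996634 and 25213127 in the libraries labelled knockout. In controls they came to 25275584, 30887946 and 44573013. PEDS1 itself had 836, 765 and 1349 normalized counts in the libraries labelled knockout 1, 2 and 3, against 1360.0, 1347 and 1399 in controls. The library labelled knockout 3 thus lies within the control range, and at this gene it goes against its label. The log2 fold change was -0.52 ± 0.17 (SE; adjusted p = 0.0725, limma), and it was -0.77 (adjusted p = 0.000147) without that library. Results of the 10 genes are therefore also given without it. It stood with its group at LIN28A, a pluripotency marker chosen after its values were seen, which had 652, 624 and 812 in the libraries labelled knockout, against 318, 321 and 339 in controls. An edit that spares the PEDS1 transcript could not be seen in its count. All 12 neuron markers were present and summed to between 440230 and 452585 normalized counts in the libraries labelled knockout, against 396234 to 415185 in controls. They did not move together: NEFL and ELAVL4 were higher and TUBB3 and RBFOX3 lower (each limma adjusted p under 0.05). TUBB3 was low, at 137, 136 and 202 in the libraries labelled knockout, against 293, 253 and 220 in controls. RBFOX3 had 1303, 1457.5 and 1337 against 1922, 1777 and 1561. Markers of other cells also differed in their summed level. The 3 pluripotency markers measured, of 8 listed, reached 1158 to 1348 against 936 to 1008, and 5 of 8 glial markers reached 585 to 595 against 432 to 478. The 7 of 8 progenitor markers reached 29130 to 32705 against 27184 to 29047, while 4 of 8 mesenchymal markers, at 96.2 to 194 against 161 to 193, overlapped. The progenitor sum was mostly NES, which did not pass (log2 fold change 0.15, limma adjusted p = 0.166). The other progenitor markers did not move together: SOX2 was lower (-0.47, adjusted p = 0.0118). PAX6 (0.89, adjusted p = 0.00912) and TOP2A (1.04, adjusted p = 0.00749) were higher. No measured marker was at 0 in a library. POU5F1, NANOG, GFAP and the 6 microglial markers were not analysed here. The part of these differences in the results below was not tested, and in bulk RNA fewer cells of a type and less RNA per cell cannot be told apart.

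GC content also moved with the groups. Across 1493 genes that averaged at least 100 normalized counts and had a GC content of at least 60%, the median deviation from a gene's own mean was -0.26, -0.07 and -0.06 on the log2 scale in the libraries labelled knockout, against 0.29, 0.16 and -0.06 in controls. Across 2049 such genes with 40% or less it was 0.07, 0.02 and 0.13 in the libraries labelled knockout, against -0.12, -0.09 and -0.01 in controls. GC-rich transcripts were thus lowest in the library labelled knockout 1 and highest in control 1. The members span this range, with 35.4% GC in SLC7A11 and 62.5% in GPX4. The results of the 10 genes are for this reason also given after removal, library by library, of the trends with GC content and transcript length.

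Many of these genes are known targets of NRF2 (the gene NFE2L2), which binds antioxidant response elements, and of ATF4, which binds C/EBP-ATF composite elements. RefSeq promoter windows of 250 bases before to 50 after the start (GRCh38.p14) were at hand for 7 of the 10 members, as 13 windows. The response element core TGACNNNGC, searched on both strands, was found in 4 of the 13, those of SLC3A2, GCLM, CBS and AIFM2, and in 13.3% of all 35116 windows. The composite core TGATGNAA, also searched on both strands, was found only in that same SLC3A2 window among the 13, and in 3.62% of all windows. SLC3A2 and CBS are shown because their transcripts were lower in the libraries labelled knockout, and GCLM and AIFM2 because they hold the same core and did not pass the test. Capitals mark the matched core, and each sequence reads 5′ to 3′ along the gene's strand. A match is a description of these letters and no evidence of binding.
SLC3A2, plus strand, the 250 bases before the start at chr11:62881449-62881698, with the core 37 to 29 bases before the start: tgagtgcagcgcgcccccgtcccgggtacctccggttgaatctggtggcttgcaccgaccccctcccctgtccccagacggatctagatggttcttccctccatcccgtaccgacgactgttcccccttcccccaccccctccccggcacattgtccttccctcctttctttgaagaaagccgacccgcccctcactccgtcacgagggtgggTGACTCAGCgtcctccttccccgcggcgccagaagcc
SLC3A2, composite core on the opposite strand, 38 to 45 bases after the start, chr11:62881726-62881748: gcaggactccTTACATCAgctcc
CBS, minus strand, core on the opposite strand 83 to 75 bases before the start, chr21:43076442-43076470: ccggctctggGCGCGGTCAcgcggggcgc
GCLM, minus strand, core on the opposite strand 34 to 26 bases before the start, chr1:93909446-93909474: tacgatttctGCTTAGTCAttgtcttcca
AIFM2, minus strand, core on the opposite strand 22 to 14 bases before the start, chr10:70132829-70132857: cagcacgagtGCTGAGTCAcgccccgccc

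Of the 10 genes, 2 were lower in the libraries labelled knockout, the cystine transporter subunit SLC3A2 and the transsulfuration enzyme CBS. STARD7, a lipid transfer protein that carries coenzyme Q, was higher. GPX4, SLC7A11 and the enzymes that make and recycle glutathione did not pass the test. A gene was called where limma gave a Benjamini-Hochberg adjusted p under 0.05 over all 16625 genes, a threshold that 13.6% of all genes passed, 5.95% as higher and 7.69% as lower. With trends on GC content and length removed, 55.7% of all calls were higher, against 43.6% without that step. The 10 genes' median log2 fold change was 0.02, beside -0.01 over all genes. The 3 members called are a small number against that background, and nothing particular to the pathway is read from it. The libraries labelled knockout did not overlap controls in 4 of the 10, 2 higher and 2 lower, a share close to the 37.1% seen over all genes. Without the library labelled knockout 3, 2 members were lower and 2 were higher (STARD7 and GSS), when 21.5% of all genes passed. With GC and length trends removed, 1 was lower (SLC3A2) and 3 were higher (STARD7, GSS and GPX4), when 20.1% of genes passed. Without control 1 and without control 2, limma called 0 of the 10, with 3 at an unadjusted p under 0.05 in each case. Of all genes 3.75% and 3.5% passed there, so the loss of calls was general.

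**Figure D1:**
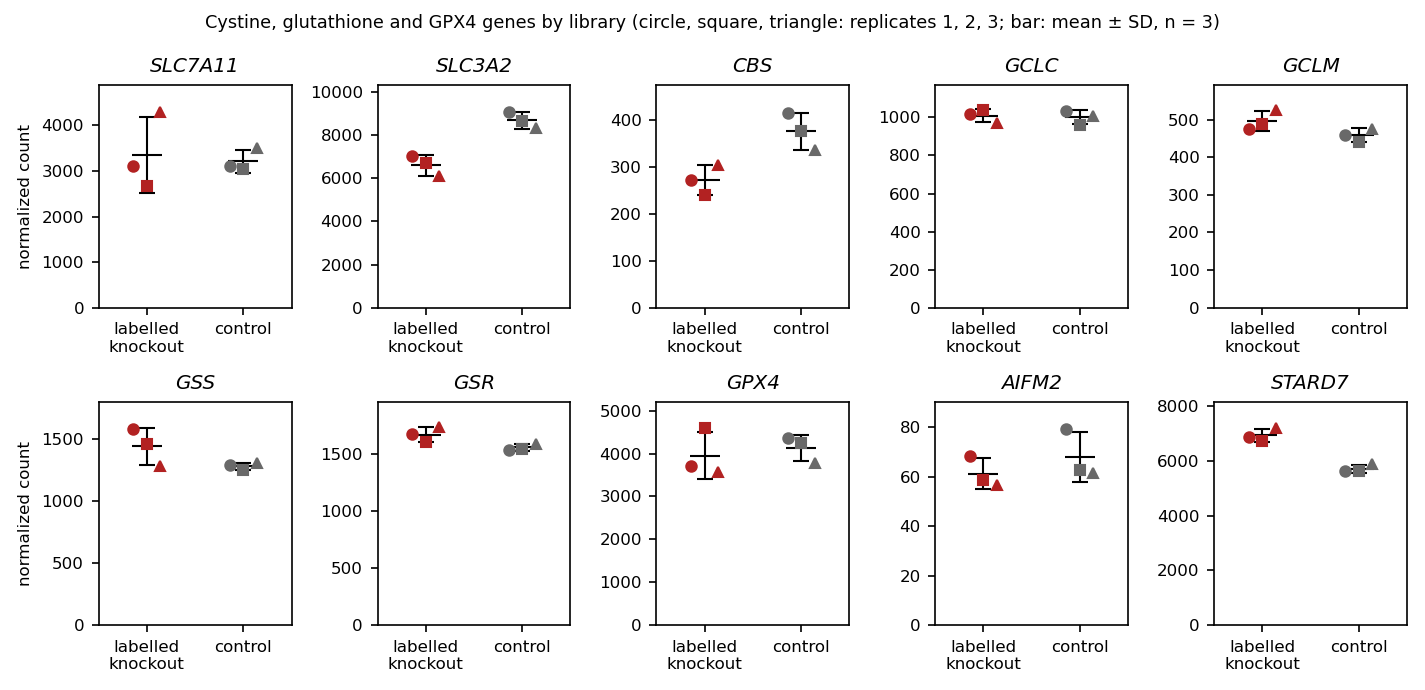
Normalized counts of each gene (vertical axes, from 0) in the 3 libraries labelled knockout and the 3 controls, 1 point per library, with bars for the mean ± SD. SLC3A2 and CBS sit below the controls without overlap, STARD7 and GSR sit above them, and SLC7A11 has its highest value, 4282, in the library labelled knockout 3.

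Cystine enters the cell through system xc-, a pair of SLC7A11, the light chain that exchanges cystine for glutamate, and SLC3A2, the heavy chain that anchors it in the membrane. SLC3A2 also serves other amino acid transporters, so its level is not that of system xc- alone. SLC3A2 (ENSG00000168003, chr11:62856102-62888875, plus strand, GRCh38) had 7039.6, 6688 and 6086 normalized counts in the libraries labelled knockout, against 9078, 8629.6 and 8316 in controls. All 3 libraries labelled knockout were below all 3 controls. The means were 6604 ± 482 and 8674 ± 383 (SD, n = 3 each), and the log2 fold change was -0.39 ± 0.08 (SE; 95% interval -0.56 to -0.23; limma adjusted p = 0.00974). The fall was -0.34 (adjusted p = 0.00399) without the library labelled knockout 3. It was smaller, -0.22 (adjusted p = 0.0144), with GC and length trends removed. The adjusted p was 0.0647 without control 1 and 0.0610 without control 2, with log2 fold changes of -0.36 and -0.40.

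SLC7A11 (ENSG00000151012, chr4:138164097-138242349, minus strand) is the subunit that is particular to system xc- and is induced by ATF4 and NRF2 in many cells. It had 3106, 2668 and 4282 normalized counts in the libraries labelled knockout, against 3105, 3037 and 3501 in controls. The groups overlapped, and the library labelled knockout 3 held the highest value and the library labelled knockout 2 the lowest. The means were 3352 ± 835 and 3214 ± 250.3 (SD, n = 3 each), with a log2 fold change of 0.03 ± 0.15 (SE; adjusted p = 0.897, limma). Its 95% interval, -0.29 to 0.36, overlaps that of SLC3A2. Without the library labelled knockout 3 it was -0.16 (adjusted p = 0.195), and with GC and length trends removed also -0.16 (adjusted p = 0.162), so its sign is not settled by these libraries.

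The balance of the subunits was compared within libraries as the ratio of SLC7A11 to SLC3A2 normalized counts. It was 0.441, 0.399 and 0.704 in the libraries labelled knockout, against 0.342, 0.352 and 0.421 in controls. Control 3 lay above the library labelled knockout 2, so the groups overlapped. On the log2 scale the ratios had SDs of 0.44 in the libraries labelled knockout and 0.16 in controls (n = 3 each), and the group means differed by 0.43. With 3 against 3 no p below 0.1 can be had, and an exact two-sided permutation test gave p = 0.2. The difference was 0.18 without the library labelled knockout 3 and 0.06 with GC and length trends removed.

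**Figure D2:**
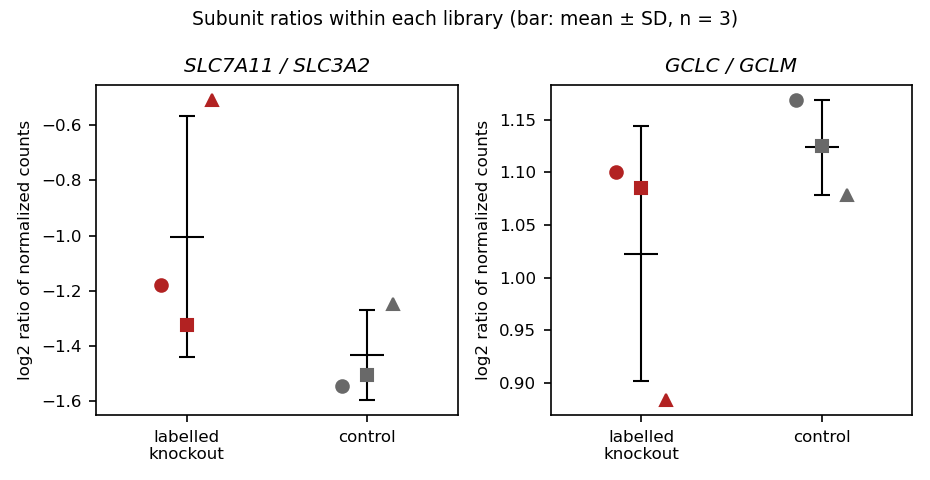
Log2 ratio of normalized counts of the subunit pairs SLC7A11 to SLC3A2 and GCLC to GCLM (vertical axes, not starting at 0) in the libraries labelled knockout and in controls, with circle, square and triangle for replicates 1, 2 and 3 and bars for the mean ± SD. The library labelled knockout 3 is the extreme point in both panels, at a ratio of 0.704 for SLC7A11 to SLC3A2 and 1.85 for GCLC to GCLM.

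Cysteine can also be made from methionine. CBS (ENSG00000160200, chr21:43053191-43076943, minus strand), cystathionine beta-synthase, joins homocysteine and serine in the committed step of transsulfuration. It had 271, 239.6 and 303 normalized counts in the libraries labelled knockout, against 415, 376 and 335 in controls. The groups did not overlap, but the library labelled knockout 3 and control 3 lay close together. The means were 271 ± 31.6 and 375 ± 39.8 (SD, n = 3 each), and the log2 fold change was -0.47 ± 0.12 (SE; 95% interval -0.73 to -0.20; limma adjusted p = 0.0300). Without the library labelled knockout 3 it was -0.55 (adjusted p = 0.0106). This was the least stable of the 3 calls: with GC and length trends removed it was -0.29 and no longer passed (adjusted p = 0.0717), and it was -0.39 (adjusted p = 0.142) without control 1 and -0.46 (adjusted p = 0.121) without control 2. It also missed the threshold without the library labelled knockout 1 (-0.47, adjusted p = 0.0562) or 2 (-0.38, adjusted p = 0.0788). The annotation holds a near-identical copy, CBSL (chr21:6444869-6468040, minus strand), not analysed here, and how reads were divided between the copies is uncertain.

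Glutathione is made in a pair of steps. Glutamate-cysteine ligase, of the catalytic subunit GCLC and the modifier subunit GCLM, joins glutamate to cysteine and sets the rate, and glutathione synthetase, GSS, adds glycine. GCLC (ENSG00000001084, chr6:53497341-53616970, minus strand) had 1018, 1037 and 969.8 normalized counts in the libraries labelled knockout, against 1034, 960.0 and 1006 in controls. The values interleaved, and this was the most even of the 10 genes, with a log2 fold change of 0.01 ± 0.07 (SE; 95% interval -0.15 to 0.18; limma adjusted p = 0.935). It was 0.04 (adjusted p = 0.684) without the library labelled knockout 3, and with GC and length trends removed -0.02 (adjusted p = 0.822). GCLM (ENSG00000023909, chr1:93885205-93909456, minus strand) had 474, 488 and 525 normalized counts in the libraries labelled knockout, against 459, 439.8 and 476 in controls. Control 3 lay just above the library labelled knockout 1. The log2 fold change was 0.11 ± 0.09 (SE; 95% interval -0.08 to 0.30; limma adjusted p = 0.390), 0.07 without the library labelled knockout 3 and 0.01 with GC and length trends removed. The ratio of GCLC to GCLM was 2.15, 2.12 and 1.85 in the libraries labelled knockout, against 2.25, 2.18 and 2.11 in controls. The difference of the log2 ratios was -0.10 (exact two-sided permutation p = 0.3), and -0.03 both without the library labelled knockout 3 and with GC and length trends removed.

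GSS (ENSG00000100983, chr20:34928433-34956027, minus strand) had 1583, 1461 and 1286 normalized counts in the libraries labelled knockout, against 1290.3, 1248 and 1305 in controls. The libraries labelled knockout 1 and 2 were above every control, and the library labelled knockout 3 was within the control range, as it was for PEDS1. The log2 fold change was 0.17 ± 0.09 (SE; 95% interval -0.03 to 0.36; limma adjusted p = 0.217). Without the library labelled knockout 3 it was 0.25 and passed (adjusted p = 0.0230), and with GC and length trends removed, all 6 libraries kept, it was 0.28 and passed as well (adjusted p = 0.0185).

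GSR (ENSG00000104687, chr8:30678061-30727999, minus strand), glutathione reductase, returns oxidized glutathione to its reduced form with NADPH. It had 1670.2, 1601 and 1737 normalized counts in the libraries labelled knockout, against 1539, 1541 and 1589 in controls. All 3 libraries labelled knockout were above the controls, by a small margin. The means were 1669 ± 67.7 and 1556 ± 28.3 (SD, n = 3 each), and the log2 fold change of 0.10 ± 0.07 (SE; 95% interval -0.05 to 0.26) did not pass (limma adjusted p = 0.348). It was 0.07 (adjusted p = 0.376) without the library labelled knockout 3 and 0.12 (adjusted p = 0.147) with GC and length trends removed.

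GPX4 (ENSG00000167468, chr19:1103926-1106791, plus strand), the selenoprotein that spends this glutathione on lipid hydroperoxides, had 3702, 4592 and 3566 normalized counts in the libraries labelled knockout, against 4371, 4249 and 3783 in controls. Both the highest and the lowest of the 6 values were in libraries labelled knockout. The means were 3953 ± 557 and 4134 ± 310.4 (SD, n = 3 each), with a log2 fold change of -0.07 ± 0.10 (SE; 95% interval -0.30 to 0.16; limma adjusted p = 0.667). Without the library labelled knockout 3 it was -0.0010 (adjusted p = 0.995). GPX4 is the most GC-rich of the 10 and has the shortest longest transcript, 1184 bases. With GC and length trends removed together it was higher in the libraries labelled knockout, with a log2 fold change of 0.23 (95% interval 0.07 to 0.39; adjusted p = 0.0442). These counts therefore show neither a loss nor a gain of GPX4 transcript that holds in both settings, and they say nothing of GPX4 protein, which also depends on selenium supply and translation.

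**Figure D3:**
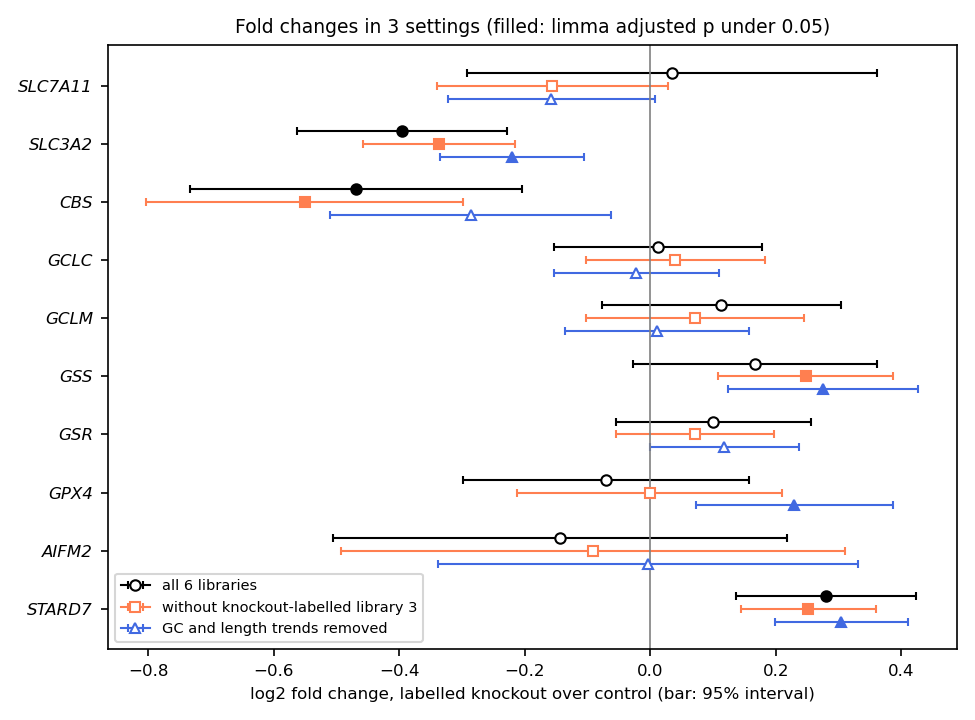
Log2 fold change of each gene, labelled knockout over control (horizontal axis), with 95% intervals, for all 6 libraries, without the library labelled knockout 3, and with GC and length trends removed; filled symbols mark a limma adjusted p under 0.05. SLC3A2 and STARD7 are filled in all 3 settings, CBS in 2, and GPX4 moves from -0.07 to 0.23 when the trends are removed.

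Reduced coenzyme Q traps lipid radicals in membranes without glutathione. AIFM2, also called FSP1, is the oxidoreductase that regenerates it, and STARD7 moves coenzyme Q from mitochondria towards the plasma membrane and phosphatidylcholine to mitochondria. STARD7 (ENSG00000084090, chr2:96184859-96208825, minus strand) had 6879.9, 6734 and 7204 normalized counts in the libraries labelled knockout, against 5636, 5630.1 and 5885 in controls. The libraries labelled knockout lay above every control, by a gap wider than the spread within either group. The means were 6939 ± 241 and 5717 ± 146 (SD, n = 3 each), and the log2 fold change was 0.28 ± 0.06 (SE; 95% interval 0.14 to 0.42; limma adjusted p = 0.0212). The rise was 0.25 (adjusted p = 0.00795) without the library labelled knockout 3 and 0.30 (adjusted p = 0.00186) with GC and length trends removed. The call was lost, at a like fold, without control 1 (0.27, adjusted p = 0.109) and without control 2 (0.27, adjusted p = 0.138), and also under quantile scaling (log2 fold change 0.21, adjusted p = 0.0524). An antisense gene, STARD7-AS1, overlaps it on the other strand. It averaged 253 and 243 normalized counts in the libraries labelled knockout and in controls, with a log2 fold change of 0.04 (adjusted p = 0.890).

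AIFM2 (ENSG00000042286, chr10:70098223-70132934, minus strand) was the least expressed member, with 71, 38 and 50 reads in the libraries labelled knockout, against 73, 71 and 100 in controls. These are 68.3, 58.7 and 56.7 normalized counts in the libraries labelled knockout, against 79.5, 62.8 and 61.7 in controls. The groups overlapped. The log2 fold change was -0.14 ± 0.16 (SE; adjusted p = 0.573, limma), with a 95% interval of -0.50 to 0.22. It was -0.09 (adjusted p = 0.743) without the library labelled knockout 3 and -0.0032 (adjusted p = 0.992) with GC and length trends removed. AIFM2 also overlaps MACROH2A2 on the opposite strand, which averaged 2586 and 3388 normalized counts in the libraries labelled knockout and in controls (log2 fold change -0.39, adjusted p = 0.00926). The kit keeps strand, but the strand setting of the counting was among the points not given in the sources used here, so the reads of this pair, and of STARD7 and its antisense gene, may not be fully apart.

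Levels of different genes were compared as normalized counts per kilobase of annotated exon. GPX4 had 1958 ± 276 in the libraries labelled knockout and 2048 ± 154 in controls (SD, n = 3 each), and in controls it stood highest, above 97.4% of all genes with a length. SLC3A2 followed at 1275 ± 93.2 in the libraries labelled knockout and 1675 ± 74.0 in controls, and STARD7 at 1572 ± 54.5 and 1295 ± 33.0 (SD, n = 3 each). The order of this pair was thus turned round between the groups, STARD7 above SLC3A2 in the libraries labelled knockout and below it in controls. GSR had 444 ± 18 per kilobase in the libraries labelled knockout and 414 ± 7.52 in controls, SLC7A11 348 ± 86.6 and 333 ± 26.0, and GSS 234 ± 24.1 and 207 ± 4.82. The ligase subunits came lower, GCLC at 117 ± 4.01 and 116 ± 4.34 and GCLM at 91.5 ± 4.85 and 84.6 ± 3.34, in the same order of groups. CBS had 39.97 ± 4.66 and 55.3 ± 5.87, and AIFM2, at 11.9 ± 1.21 and 13.2 ± 1.94, was above only 15.7% of genes. In controls the values of neighbours in this order did not overlap. With the longest transcript as the length, SLC3A2 stood above GPX4, GSS above SLC7A11 and CBS above GCLM in controls, so those pairs have no settled order. On that length STARD7 stayed below SLC3A2 in both groups, at 2060.4 against 2972 in the libraries labelled knockout and 1697 against 3904 in controls, so the turn of this pair holds for exon length only.

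For GPX4, SLC7A11 and the 3 genes called, the 3 genes most like each were found by the root mean square difference of log2 normalized counts, centred on each gene's mean over the 6 libraries, among 11455 genes that have a symbol and a mean of at least 100. These are descriptions over 6 libraries that share depth and GC content, and they say nothing of shared function. Nearest to GPX4 were NDUFS6 (0.02), SF3B5 (0.03) and POLR2I (0.03), genes with short longest transcripts of 1082, 693 and 993 bases, beside 1184 for GPX4. Nearest to SLC7A11 were ACAP2 (0.04), KRBA2 (0.05) and PTGER3 (0.05), which like it were highest in the library labelled knockout 3. Nearest to SLC3A2 were TUBG2 (0.02), GADD45A (0.02), a stress-induced growth arrest gene, and SDR39U1 (0.03). CBS had SLC27A3 (0.04), XRCC3 (0.05) and DGKZ (0.05) nearest, with GC contents of 60.1%, 63.8% and 61.1%, beside 57.8% for CBS. STARD7 had the closest neighbours of the 5, ANKRD13A (0.01), ELOA (0.02) and CORO1C (0.02).

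The surrounding pathway was followed in 10 further lists with 170 genes, of which 150 were in the table. Of these 25 were called, 9 higher and 16 lower, and their median log2 fold change was -0.02. That share, 16.7%, is near the 13.6% of all genes. Leaving out the library labelled knockout 3 gave 39 called (20 higher, 19 lower), 26% beside 21.5% of all genes. With GC and length trends removed, 40 were called (21 higher, 19 lower), 26.7% beside 20.1%. Leaving out control 1 left 9, or 6%, and leaving out control 2 left 6, or 4%, beside 3.75% and 3.5% of all genes. Each single list below is small, and its count is to be read beside the share of all genes in the same setting. Of the 24 genes named below by rule, 5 passed without either of these controls in turn: SLC1A5, MVD, TXNIP, SESN2 and DDIT3. Of the 24, 4 were not called with GC and length trends removed (GGT7, CTNS, TXNRD2 and MAFF), and without the library labelled knockout 3 it was 2 (GCHFR and TXNRD2). The calls of GSTA4, GSTZ1, SECISBP2L, GCHFR and TXNRD2 were each lost in 5 of the 6 omissions of a single library, and those of GGT7, IDH1 and NFE2L1 in 4 of the 6.

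Of 11 measured genes for other carriers of cysteine and cystine, 3 were called, all lower like SLC3A2, with a list median of -0.16. After removal of the GC and length trends 3 were lower and 1 was higher. SLC1A5, an exchanger of neutral amino acids best known for glutamine, had 2982, 3049 and 3040.0 normalized counts in the libraries labelled knockout, against 4331, 4151 and 3936 in controls. The groups were well apart, with a log2 fold change of -0.45 ± 0.07 (SE; adjusted p = 0.00301, limma), and -0.20 (adjusted p = 0.0201) with GC and length trends removed. Its relative SLC1A4, which carries serine, alanine and cysteine, had 6077, 5821 and 6134 normalized counts in the libraries labelled knockout, against 7413, 7424 and 7474 in controls (log2 fold change -0.31, adjusted p = 0.0124). CTNS, the lysosomal cystine exporter, was lower by a log2 fold change of -0.37 (adjusted p = 0.0323), a call lost with GC and length trends removed (adjusted p = 0.0752).

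Around CBS, 2 of 14 transsulfuration and methionine cycle genes were called, and the list median was 0.14. Counts became 4 higher and 2 lower, with a median of 0.03, once GC and length trends were removed, and without the library labelled knockout 3, 4 were higher and 1 lower. CSAD, which turns a cysteine oxidation product towards taurine, had 169, 162 and 221 normalized counts in the libraries labelled knockout, against 293, 305 and 283 in controls (log2 fold change -0.68, limma adjusted p = 0.00919). AHCYL2, a relative of S-adenosylhomocysteine hydrolase, was higher by 0.36 (adjusted p = 0.00978). Of 12 genes of the gamma-glutamyl cycle and glutathione transport, LANCL1, a glutathione-binding protein, was higher by 0.37 (adjusted p = 0.00890) and GGT7, of the gamma-glutamyltransferase family, lower at -0.27 (adjusted p = 0.0442). GGT7 has 61.2% GC and was at -0.02 (adjusted p = 0.818) with GC and length trends removed. The list median was -0.05.

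Among 20 other glutathione peroxidases, transferases and glutaredoxins, 3 were called, all higher, with a list median of 0.13. GPX8, a peroxidase of the endoplasmic reticulum, had 295, 281 and 253 normalized counts in the libraries labelled knockout, against 149, 196 and 186 in controls (log2 fold change 0.64, limma adjusted p = 0.0111). GSTA4, which conjugates the lipid peroxidation product hydroxynonenal to glutathione, had 9355, 9563 and 7510.3 normalized counts in the libraries labelled knockout, against 6788, 6462 and 6789 in controls (log2 fold change 0.39, adjusted p = 0.0240). Both stood above the controls in every library labelled knockout, GSTA4 least so in library 3. GSTZ1, of tyrosine breakdown, was higher by 0.30 (adjusted p = 0.0490). The calls of the transferases are weak: GSTA4 also missed the threshold under quantile scaling (adjusted p = 0.0520), and GSTZ1 under TMM scaling (adjusted p = 0.0593) and edgeR (adjusted p = 0.0613). In all, 6 genes of this list were higher without the library labelled knockout 3, when 21.5% of all genes passed in either direction. Of 13 genes of selenocysteine insertion, which GPX4 translation needs, 1 was called, SECISBP2L, a relative of the protein that binds the selenocysteine element, with a log2 fold change of 0.30 (adjusted p = 0.0497) and a list median of 0.07. That call was lost in 10 of 19 other settings, TMM scaling (adjusted p = 0.0544) and edgeR (adjusted p = 0.0517) among them, and with GC and length trends removed 2 of the list were higher and 1 lower.

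Beside AIFM2 and STARD7, 3 of 18 genes of coenzyme Q synthesis were called, all lower, and the list median was -0.13. With GC and length trends removed this became 5 lower and 3 higher, and without the library labelled knockout 3, 4 were lower and 2 higher. MVD, mevalonate diphosphate decarboxylase, had 1083, 1417 and 1436 normalized counts in the libraries labelled knockout, against 2845, 2529 and 1959 in controls. The log2 fold change was -0.89 ± 0.15 (SE; adjusted p = 0.00482, limma), and -0.58 (adjusted p = 0.000837) with GC and length trends removed. MVK, mevalonate kinase, was lower at -0.45 (adjusted p = 0.00594), and COQ4, which acts in coenzyme Q assembly, at -0.56 (adjusted p = 0.00798). MVD and MVK act upstream, in the pathway that also makes cholesterol. Of 13 radical-trapping genes 1 was called, GCHFR, a regulator of tetrahydrobiopterin synthesis, with 29.8, 20.1 and 26.1 normalized counts in the libraries labelled knockout, against 14.2, 12.4 and 10.5 in controls. Its log2 fold change was 0.97 (adjusted p = 0.0348), a call lost without the library labelled knockout 3 (adjusted p = 0.0534), and the list median was -0.04.

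GSR and thioredoxin reductase need NADPH, and 2 of 16 genes of its supply were called, with a list median of -0.01. These became 2 higher and 2 lower with GC and length trends removed. NNT, the mitochondrial transhydrogenase, was higher by 0.34 (limma adjusted p = 0.0161), and IDH1, a cytosolic NADPH source, lower at -0.27 (adjusted p = 0.0408). Of 14 thioredoxin and peroxiredoxin genes 3 were called, 1 higher and 2 lower, and the list median was 0.01. This became 4 higher and 1 lower without the library labelled knockout 3, and with GC and length trends removed 3 higher and 1 lower. TXNIP, an inhibitor of thioredoxin that also restrains glucose uptake, had 81.8, 88.1 and 69.2 normalized counts in the libraries labelled knockout, against 16.3, 30.1 and 14.8 in controls. Its log2 fold change of 1.98 ± 0.26 (SE; adjusted p = 0.00146) was the highest among the genes named here. SESN2, a stress-induced sestrin, had 2705, 2828 and 2841 normalized counts in the libraries labelled knockout, against 4125, 4051 and 3574 in controls (log2 fold change -0.49, adjusted p = 0.00388). TXNRD2, the mitochondrial thioredoxin reductase, was at 8.66, 15.5 and 6.81 normalized counts in the libraries labelled knockout, against 24.0, 23.0 and 22.8 in controls (adjusted p = 0.0357), and lost its call without library 3 (adjusted p = 0.0547) and with the trends removed (adjusted p = 0.0716).

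Of 19 genes that regulate the members, 5 were called, all lower, with a list median of -0.07. Of all genes 13.6% were called, 7.69% as lower. After removal of the GC and length trends 3 were lower and 1 was higher. DDIT3, the stress factor CHOP, which is induced by ATF4, had 2395, 2182 and 1762 normalized counts in the libraries labelled knockout, against 5342, 5729 and 5795 in controls. The groups were far apart, with a log2 fold change of -1.42 ± 0.11 (SE; adjusted p = 5.24e-05, limma). ATF3 had 1612, 1584 and 1384 normalized counts in the libraries labelled knockout, against 1959, 2026 and 2065 in controls (log2 fold change -0.40, adjusted p = 0.0114). NFE2L1, a relative of NRF2, was lower at -0.27 (adjusted p = 0.0230), and the small Maf partner MAFF at -0.49 (adjusted p = 0.0198), a call lost with GC and length trends removed (adjusted p = 0.145). MAFK, named after its values were seen, was lower at -0.72 (adjusted p = 0.0309). It was not among the 3 called lower with GC and length trends removed, which were DDIT3, ATF3 and NFE2L1. ATF4 and NFE2L2, also named after their values were seen, did not pass: ATF4 had a log2 fold change of -0.07 ± 0.10 (SE; adjusted p = 0.648) and NFE2L2 of 0.14 ± 0.09 (SE; adjusted p = 0.290). These are transcript levels, and both factors are controlled largely at the protein level.

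**Figure D4:**
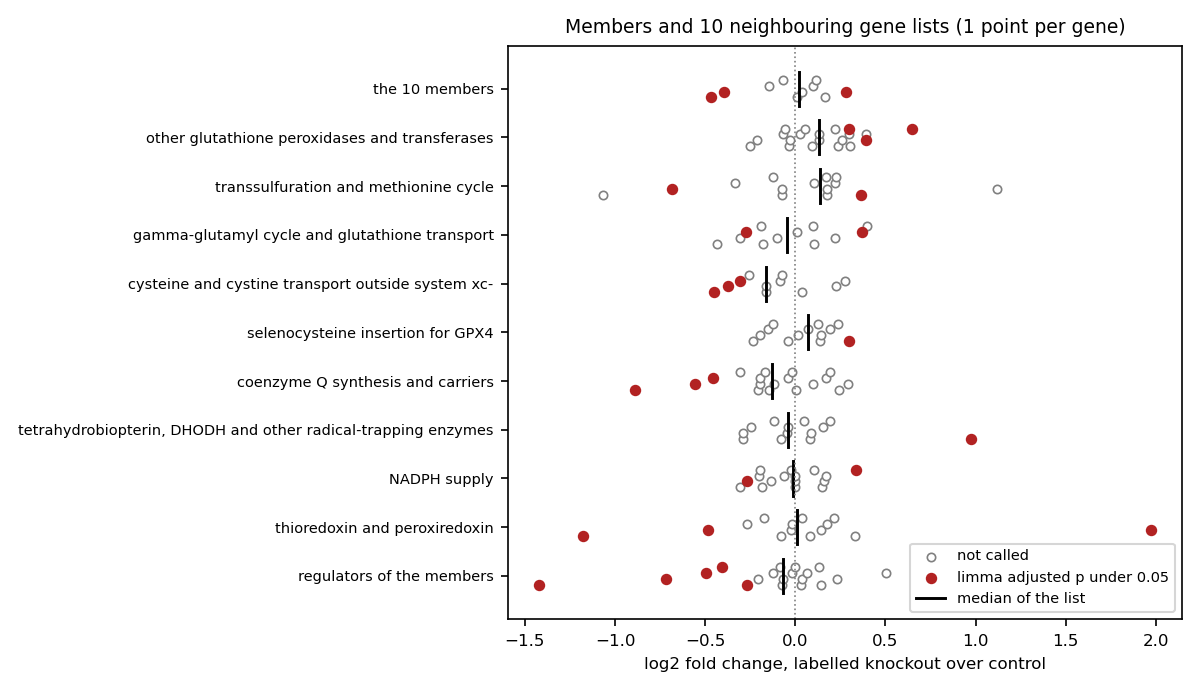
Log2 fold change, labelled knockout over control (horizontal axis), of the 10 genes and of the 10 lists around them, 1 point per gene, with a bar at each list's median and filled points for a limma adjusted p under 0.05. List medians lie between -0.16 and 0.14, and called points stand on both sides of 0, with TXNIP at 1.98 and DDIT3 at -1.42 the farthest out among them.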

How the data were processed

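PolyA RNA of 6 libraries was compared, 3 labelled PEDS1 knockout and 3 control, grouped by their labels. The processing named build GRCh38 and the tools STAR 2.7.10b and DESeq2, per the submitters' processing notes, with counting tool and annotation not given in the sources used here. Per the file headers, the authors deposited normalized counts, a signal per gene and library equal to reads over a size factor. Every value was a whole multiple of its library's unit (tolerance 1e-06), which gave whole reads for tests with edgeR 4.0.16 (2248 genes called) and DESeq2 1.42.0 (2706). The authors also deposited a log2 fold change and an adjusted p-value per gene, empty for 1612 genes. A sheet that repeats 344 genes was not used.

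Here limma 3.58.1 (R 4.3.3) fitted log2(normalized count + 1) with a trend in the variance, and p-values were adjusted over 16625 genes (Benjamini-Hochberg); the pseudocount understates folds of low genes. GC content and length came from GENCODE 29 for 96.5% of genes, and their trends were removed per library with natural splines of 4 degrees of freedom. The members and lists were chosen with earlier results of these data known. Named were all members, up to 4 called genes of each list, smallest adjusted p preferred, and the 3 genes most like GPX4, SLC7A11 and each member called. No replicate pair agreed within sampling noise. The mean squared difference over that noise was 2.67 for controls 1 and 2, the closest pair, and 6.53 to 32.3 for the others. Across genes with a mean count of 100 or more the median SE was 0.09 on the log2 scale. Alternatives were TMM and quantile scaling, other pseudocounts and count filters, library weights, omission of each library and a replicate block.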

Additional observations from a re-analysis of the deposited data

How the results depend on the processing

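The calls rest on few libraries. The count of genes called, 2269, was 582 to 3577 with a library left out (1509 without the library labelled knockout 2, 3577 without 3, 623 without control 1, 582 without control 2) and 6614 with a weight per library, where the library labelled knockout 3 had a weight of 0.19 and control 2 of 11.1. The count of members called ranged between 0 and 4 with a library left out, being 0 without control 1 or 2. Same-numbered replicates did not deviate together (r = -0.30, 0.10 and -0.05 across genes). Differently numbered ones reached 0.27 (labelled knockout 1 with control 3) and -0.22 (labelled knockout 2 with control 3). With so few libraries these values cannot tell whether the numbers pair the libraries. With a replicate block 1560 genes and 2 members were called. GPX4 reversed to 0.23 with GC and length trends removed, and also with the replicate block added (adjusted p = 0.0461), from -0.07; the trend removal itself makes the difference. PEDS1, which missed the threshold, passed it at -0.48 with DESeq2 and in the authors' deposited table, at -0.52 with quantile scaling, at -0.61 with GC and length trends removed, alone or with the replicate block, and at -0.70 with library weights; with a library left out it ranged between -0.77 and -0.37. The log2 ratio difference of SLC7A11 to SLC3A2 was 0.062 with trends removed. GSS passed in 4 of 19 settings, SLC3A2 missed in 2, STARD7 in 3 and CBS in 7, without a change of sign. GCLC, GCLM, GSR, AIFM2 and SLC7A11 passed in none of the settings run for them. With 3 libraries a group, a gene that did not pass may still have changed by an amount within its interval.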
